A study of Mus musculus with 8 samples.

Results

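The 9 genes described here encode transcription factors that are known to set or to hold the identity of microglia, the resident macrophages of the brain and spinal cord. They were chosen by their symbols (Sall1, Sall3, Spi1, Mef2a, Mef2c, Maf, Runx1, Cebpa and Cebpb) out of 27998 genes in the tables, and all 9 were measured in each of 8 single-cell RNA libraries. The rule itself uses no measured value.

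As background, macrophages of every tissue share a core set of factors, above all PU.1 (the product of Spi1), RUNX1 and C/EBPα, which open myeloid enhancers and drive genes such as the receptor Csf1r. Microglia add factors of their own to this core. SALL1 in the adult nervous system is largely a microglial protein and keeps the resting program on, SALL3 is its close relative, and MEF2A, MEF2C and c-MAF bind enhancers of genes of mature microglia. C/EBPβ is the inducible member of the C/EBP family and acts at inflammatory genes.

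Cells came from the lumbar cord of C57BL/6 mice and were sorted for YFP. All animals carried 1 copy of Cx3cr1-yfp-creER, so that YFP and a tamoxifen-inducible Cre were driven by the Cx3cr1 locus, which other macrophages and some monocytes use as well, and tamoxifen was given for recombination. The control animals carried no floxed allele, and the A20 cKO animals were in addition Tnfaip3 fl/fl, Tnfaip3 being the gene of the NF-kB inhibitor A20. Within each genotype 1 library was naive and 1 each was taken 1, 2 and 3 days after bilateral transection of the sciatic nerves, an injury after which spinal microglia divide. Age is given only as young or adult, both sexes were used, and each library pooled the cords of more than 1 animal. The meninges were removed, and the sort applied a size gate and a gate against doublets.

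Each of the 8 groups was therefore 1 library, with no replicate, so no test between groups could be run. Values are counts of unique molecular identifiers (UMIs), each UMI marking 1 captured RNA molecule at its 3′ end, summed over the kept cells of a library and given as counts per 1000000 UMIs (CPM). Ranges after values are 95% intervals (exact Poisson for CPM, exact conditional for log2 ratios, exact Clopper-Pearson for shares of cells) and cover counting error only. A gene is called higher or lower where libraries differed at least 1.5-fold, which is a size and not a test. Levels are compared between libraries for 1 gene at a time and never between genes.

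The libraries held 14883 barcodes, of which 14626 were kept (at least 1000 UMIs, at least 500 genes and at most 10% mitochondrial UMIs), with 1648400 to 15817426 UMIs per library and a median of 2780 to 4274 UMIs per kept cell. Of all kept cells, 99.2% had a UMI of Tmem119, 98.6% of Csf1r, 97.8% of P2ry12 and 96.7% of Cx3cr1, and the cells thus carried the defining markers of their label. Tnfaip3 itself reached 6.83 to 25.3 CPM in the control and 42.3 to 67.7 CPM in the A20 cKO libraries. Since the 3′ end that is counted can lie outside the deleted stretch, these counts do not check the deletion.

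One split of the libraries is not in the labels and touches most results below. The library of control day 3 and all 4 of A20 cKO, here named linked, shared 256 cell barcodes over their 10 pairs, a median of 13.7 per 1000000 possible pairs of barcodes. The median was 1.94 for the 15 pairs of a linked with another library, and 1.59 for the 3 pairs that the other control libraries make. Kept cells whose barcode was found in a second library made up 1.59% to 7.0% of a library. Markers of other cells moved with the split too. The 6 oligodendrocyte markers summed to 61.1 to 83.3 CPM in the other 3 and 150.3 to 203.1 CPM in the linked libraries, and the 6 astrocyte and ependymal markers, of which Ttr was at 0 in the other 3, to 0 to 1.71 and 134.3 to 410.4 CPM. The 8 markers of other macrophages and monocytes summed to 2.13 to 3.70 and 26.2 to 87.7 CPM, the 6 neutrophil markers to 0 to 0.142 and 31.1 to 52.8 CPM, and the 6 neuron markers to 0.854 to 2.47 and 3.03 to 10.6 CPM. In the linked libraries most of the macrophage and monocyte sum was Plac8, at 22.1 to 83.4 CPM against 0.925 to 1.85 CPM in the other 3. Ms4a7 was at 0 in the other 3 and had UMIs in every linked library. Ccr2 overlapped (0.33 to 2.36 CPM in the linked and 0.63 to 1.85 CPM in the other 3), and Cd163 was at 0 in all. The lymphocyte sum was lower in the linked libraries (22.0 to 37.5 CPM) than in the other 3 (38.3 to 54.7 CPM). Most of it was Cd79b, at 21.2 to 51.0 CPM over all libraries, while Cd3e and Ms4a1 were at 0 in all. The endothelial and mural sums overlapped (25.5 to 42.6 and 13.7 to 51.2 CPM), and most of them was Pecam1 (19.2 to 36.7 and 13.4 to 51.2 CPM). Cldn5 and Flt1 did not overlap. Cldn5 stood at 0.561 to 4.80 CPM in the linked libraries and 0 in the other 3, and Flt1 at 1.68 to 3.54 and 0 to 0.0632 CPM. Of the 10 comparisons below 4 cross the split, namely control day 3 against control naive and A20 cKO against control in the naive state, on day 1 and on day 2. In these the split and the condition cannot be told apart, and the part that cells of other types had in the ratios was not tested.

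Promoter stretches of 3 members are shown because their genes had the widest range of levels over the libraries or, for Mef2a, because the window holds letters that members of the ETS and MEF2 families read. They were taken from RefSeq (build GRCm38.p6), whose table held 11 windows for 6 of the 9 members. The Cebpb stretch is chr2:167688665-167688914 (plus strand), the bases from -250 to -1 before the start site, with matches of TGACG, the core bound by CREB and AP-1 related factors, in capitals on either strand. The Cebpa stretch is chr7:35119043-35119292 (plus strand), again from -250 to -1, with the TATAAA box in capitals. The Mef2a stretch is chr7:67372851-67372980 (minus strand), from -122 to 8 bases into the gene, with GAGGAA, the purine-rich core that PU.1 and other ETS factors read, and a match of the MEF2 motif (CTA and TAG with any 4 bases between them) in capitals.
Cebpb: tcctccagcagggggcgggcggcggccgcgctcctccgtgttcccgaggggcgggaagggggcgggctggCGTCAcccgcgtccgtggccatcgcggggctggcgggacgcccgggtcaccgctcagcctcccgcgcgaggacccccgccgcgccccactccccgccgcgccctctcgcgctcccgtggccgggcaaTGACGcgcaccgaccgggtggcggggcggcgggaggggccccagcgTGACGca
Cebpa: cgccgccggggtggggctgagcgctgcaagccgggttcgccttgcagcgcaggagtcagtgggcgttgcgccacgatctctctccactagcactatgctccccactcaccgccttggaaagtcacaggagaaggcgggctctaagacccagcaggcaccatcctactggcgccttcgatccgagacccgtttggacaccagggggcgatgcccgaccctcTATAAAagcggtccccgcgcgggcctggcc
Mef2a: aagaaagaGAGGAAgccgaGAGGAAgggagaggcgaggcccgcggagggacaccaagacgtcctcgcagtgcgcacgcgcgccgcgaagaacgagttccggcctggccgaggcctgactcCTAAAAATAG

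Cebpb, a gene of 1 exon known to answer to cAMP and stress signals, held 3 TGACG matches in this stretch, at -180, -53 and -7 from the start site, and 20.9% of 32544 promoter windows of 300 bases held at least 1. Cebpa held its TATAAA match at -30, and 13.6% of windows held 1. The Mef2a window had 2 GAGGAA matches, at -114 and -103 (28.1% of windows held 1), and the MEF2 motif at -2, written CTAAAAATAG there (3.70% of windows). The whole windows of 300 bases from which these stretches were taken had 80.7%, 67.3% and 62.3% G and C, where the median of all windows was 53%. Both strands were searched, matches shown here do not overlap each other, and TTGCNNAA (C/EBP, 10.8% of windows), TGTGGT (RUNX, 16.7%) and TGCTGA (MAF, 19.5%) were searched in the same way and gave no match in these 3 windows. In the other windows of members, 2 of 3 windows of Mef2c and 1 of 2 of Runx1 held GAGGAA, the other Runx1 window held TGTGGT in 2 places, the third Mef2c window held TGCTGA, and 1 of 3 Sall1 windows held TGACG. A match is a run of letters and not a shown binding site.

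Sall1 (ENSMUSG00000031665, chromosome 8, 89027235 to 89044162, minus strand, GRCm38) encodes the zinc-finger factor that keeps microglia in their resting state. In the control libraries it stood at 189 CPM (169 to 212) in naive animals, 88.1 CPM (83.3 to 93.2) on day 1, 93.0 CPM (88.3 to 97.9) on day 2 and 119.8 CPM (112 to 128) on day 3 after injury. The A20 cKO libraries gave 146 CPM (138 to 154) naive and 123 CPM (111 to 136), 96.9 CPM (86.1 to 109) and 105 CPM (92.8 to 118) on days 1 to 3. Both naive libraries thus stood above every injured library, first the control and then the A20 cKO one, with neighbours in the order apart beyond counting error down to A20 cKO day 1. From there down, through control day 3, A20 cKO day 3, A20 cKO day 2, control day 2 and control day 1, no library differed from its neighbour in the order beyond counting error. The ends of this run did differ, A20 cKO day 1 against control day 1 standing at 0.48 log2 (0.31 to 0.65). The order mixes linked and other libraries, and the share of all genes with both naive libraries on top was not counted. After every cell was thinned to 2000 UMIs to equal out depth, Sall1 was found in 33.7% (29.5% to 38.0%) of control naive cells and in 15.8% (13.04% to 18.9%) of A20 cKO day 2 cells, the highest and the lowest share. Without thinning these shares were 41.0% and 32.2%.

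Sall3 (ENSMUSG00000024565), the less studied relative of Sall1, varied least of the 9. Its controls stood at 72.2 CPM (59.7 to 86.5), 92.1 CPM (87.2 to 97.3), 76.9 CPM (72.7 to 81.4) and 93.5 CPM (86.6 to 101) in the naive state and on days 1, 2 and 3. In A20 cKO the same states gave 72.7 CPM (67.2 to 78.5), 66.0 CPM (57.2 to 75.9), 76.8 CPM (67.3 to 87.3) and 71.2 CPM (61.2 to 82.4). The highest library was 1.42 times the lowest, and 1 step in the order, from control day 1 down to control day 2, was wider than counting error. The share of thinned cells with Sall3 lay between 12.5% and 16.9%, and without thinning between 17.6% and 30.9%.

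Spi1 (ENSMUSG00000002111, chromosome 2, 91082390 to 91115756, plus strand, GRCm38), the gene of PU.1, is needed for the whole myeloid lineage. Controls had 549 CPM (513 to 586) naive, 595 CPM (583 to 608) on day 1, 537 CPM (526 to 549) on day 2 and 404 CPM (390.0 to 419) on day 3. A20 cKO libraries had 388 CPM (376 to 402), 421 CPM (398 to 445), 391 CPM (369 to 413) and 358 CPM (335 to 382) in the same order of states. Libraries of the split did not overlap, since the 5 linked ones stood at 358.1 to 421 CPM and the other 3 at 537 to 595 CPM. Within the linked libraries A20 cKO day 1, control day 3, A20 cKO day 2 and A20 cKO naive followed each other without a step beyond counting error. The ends of this run did differ, A20 cKO day 1 against A20 cKO naive standing at 0.12 log2 (0.02 to 0.21). Control naive and control day 2 did not differ beyond counting error either. Thinned cells with Spi1 made up 48.1% (A20 cKO day 3) to 68.3% (control day 1), and cells before thinning 64.6% to 88.8%.

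Mef2a (ENSMUSG00000030557, chromosome 7, 67231163 to 67372858, minus strand, GRCm38) encodes a MADS-box factor whose motif is common at enhancers of microglia. It was measured at 568 CPM (532 to 606), 376 CPM (366 to 386), 361 CPM (352 to 371) and 800.5 CPM (780.1 to 821) in control naive and on control days 1, 2 and 3. In A20 cKO it was measured at 847 CPM (828 to 866) naive and at 759 CPM (728 to 790.5), 619 CPM (592 to 648) and 605 CPM (575 to 636) after injury. All 5 linked libraries were above all 3 others here, the nearest pair being A20 cKO day 3 and control naive, which did not differ beyond counting error. Within the other 3 the injured control libraries were below control naive, and within the linked ones the injured A20 cKO libraries were below A20 cKO naive. Its share of thinned cells ran from 52.9% on control day 2 to 80.4% on control day 3, and before thinning from 77.2% to 89.3%.

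Mef2c (ENSMUSG00000005583, chromosome 13, 83504034 to 83667080, plus strand, GRCm38), a second MADS-box factor that restrains inflammatory responses of microglia, was nearly level in controls. They had 1018 CPM (969 to 1068) naive, 1052 CPM (1036 to 1069.5) on day 1, 939 CPM (924 to 954) on day 2 and 1092 CPM (1068 to 1116) on day 3. A20 cKO naive and day 1 stood at 1025 CPM (1004 to 1046) and 980.0 CPM (945 to 1016), but day 2 and day 3 at 692 CPM (662 to 722) and 677 CPM (645 to 709.6). The last pair stood below the other 6 libraries and did not differ from each other beyond counting error, and control naive did not differ beyond counting error from its neighbours in the order, A20 cKO naive and A20 cKO day 1. Of thinned cells 71.7% (A20 cKO day 3) to 87.1% (control day 1) had a UMI of Mef2c, and of unthinned cells 87.8% to 97.3%.

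Maf (ENSMUSG00000055435, chromosome 8, 115682942 to 115707794, minus strand, GRCm38) encodes c-MAF, a leucine-zipper factor of tissue macrophages. Control naive had the highest level, 568 CPM (532 to 606), and control days 1, 2 and 3 had 254 CPM (246 to 262), 328 CPM (319 to 337) and 370.0 CPM (356 to 384). A20 cKO naive came second with 477 CPM (462 to 491), and its days 1, 2 and 3 had 361 CPM (339.8 to 383), 254 CPM (237 to 273) and 311 CPM (289.6 to 333). As for Sall1, both naive libraries stood above all 6 injured ones. This order too mixes linked and other libraries, and the share of all genes with it was not counted. Neighbours that did not differ beyond counting error were A20 cKO day 2 and control day 1, the lowest pair, control day 3 and A20 cKO day 1, and control day 2 and A20 cKO day 3. Maf was found in 61.8% (57.3% to 66.0%) of thinned control naive cells and 39.5% (37.8% to 41.2%) of thinned control day 1 cells, and in 61.6% to 73.9% of cells before thinning.

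Runx1 (ENSMUSG00000022952, chromosome 16, 92601466 to 92826149, minus strand, GRCm38) encodes a Runt-domain factor that early microglia need and that acts with CBFβ. It was low in control naive at 116 CPM (100.02 to 134) and on control day 2 at 120.2 CPM (115 to 126), which did not differ beyond counting error, and higher on day 1 at 229 CPM (221 to 237) and day 3 at 279 CPM (267 to 292). All 4 A20 cKO libraries lay close together, at 248 CPM (237 to 258) naive and 251 CPM (233 to 269), 217 CPM (201 to 234) and 223 CPM (205 to 242) after injury. Control day 1, A20 cKO day 3 and A20 cKO day 2 followed each other without a step beyond counting error, as did A20 cKO day 1 and naive. The step from A20 cKO day 2 down to control day 2 was the widest in the order, 0.85 log2 (0.72 to 0.98). Thinned cells with Runx1 made up 20.7% of control naive and 42.2% of control day 3, and unthinned cells 27.5% to 57.3%.

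Cebpa (ENSMUSG00000034957, chromosome 7, 35119293 to 35121928, plus strand, GRCm38), the gene of the C/EBP factor that is needed for making myeloid cells, had the widest range, 3.42-fold. Control day 1 stood alone at 359 CPM (349 to 369), above control naive at 226 CPM (203 to 250.2), while control day 2 and day 3 had 135 CPM (129 to 141) and 128 CPM (120.4 to 137) and did not differ beyond counting error. In A20 cKO the order was another one, with 192 CPM (183 to 201) naive, 108 CPM (96.3 to 120.0) on day 1, 105 CPM (93.6 to 117) on day 2 and 159 CPM (144 to 176) on day 3. Day 1 was thus the highest control library, and with day 2, from which it did not differ beyond counting error, the lowest in A20 cKO. The share of thinned cells was 45.2% (43.5% to 46.9%) on control day 1 and 18.7% (16.1% to 21.5%) on A20 cKO day 1, and before thinning it was 66.1% and 28.3%.

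Cebpb (ENSMUSG00000056501, chromosome 2, 167688915 to 167690418, plus strand, GRCm38), the inducible C/EBP gene, varied 3.27-fold. Among controls the naive library had the lowest level of all 8, 223 CPM (200.4 to 247), day 1 had 439 CPM (428 to 449.7), day 2 298 CPM (289 to 307) and day 3 605 CPM (587 to 623). A20 cKO started high, at 571 CPM (555 to 587) naive, and had 729 CPM (699 to 760.5), 621 CPM (593 to 649) and 553 CPM (525 to 583) on days 1, 2 and 3. All 5 linked libraries were above the other 3, and within the linked set control day 3 lay among the A20 cKO libraries, next to A20 cKO day 2, from which it did not differ beyond counting error. Of thinned cells 34.5% (30.3% to 38.8%) of control naive and 71.8% (68.6% to 74.8%) of A20 cKO day 1 had a UMI of Cebpb, and before thinning the range was 44.5% to 83.2%.

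**Figure D1:**
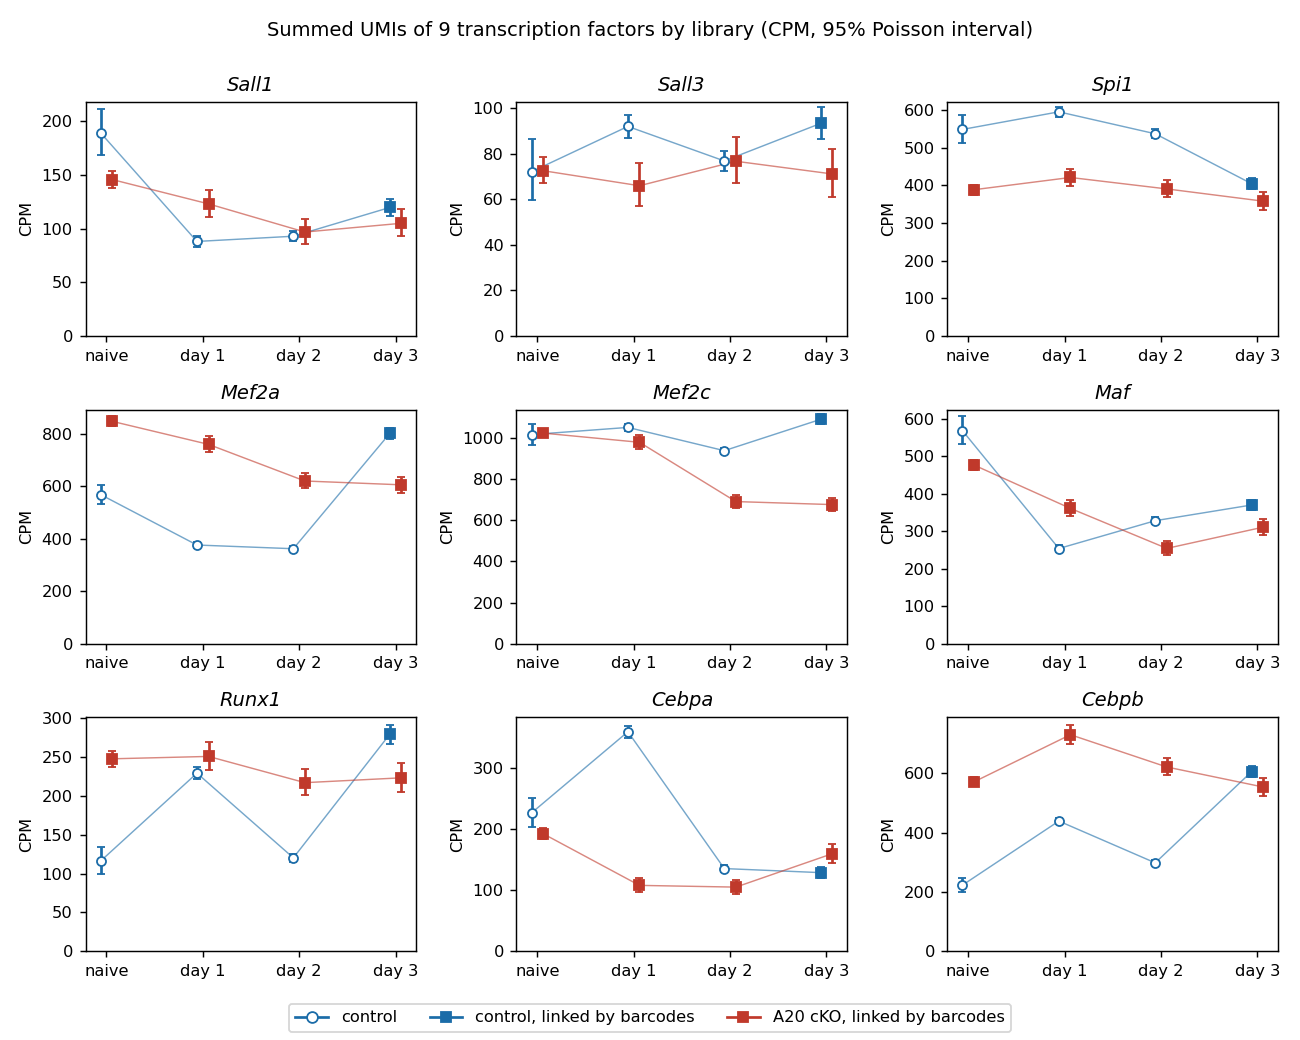
Level of each of the 9 factors (CPM, linear axis from 0) in each library by state (naive, day 1, day 2, day 3), with filled squares for the 5 linked libraries and open circles for the other 3, and with colour giving the genotype. Bars are 95% Poisson intervals, and Mef2a and Cebpb stand higher, and Spi1 lower, in all squares than in all circles.

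In all, 3 of the 9 members did not overlap between the 5 linked and the other 3 libraries, Mef2a and Cebpb being higher and Spi1 lower in the linked ones. Of 11045 genes with at least 100 UMIs over all libraries, 29.6% did not overlap in this way, 19.9% standing higher and 9.68% lower in the linked libraries. The members' share is close to this background.

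The first question is how the factors stood after nerve injury in control animals. On day 1 the resting-state factor Sall1 (log2 ratio to naive -1.11, -1.29 to -0.92) and Maf (-1.16, -1.27 to -1.06) were the lowest relative to naive, and Mef2a followed at -0.60 (-0.70 to -0.49). Runx1 (0.98, 0.77 to 1.20), Cebpb (0.98, 0.82 to 1.13) and Cebpa (0.66, 0.51 to 0.82) were higher. Spi1, Mef2c and Sall3 were within 1.5-fold of naive. That makes 3 of 9 members at least 1.5-fold higher and 3 lower, where 10.6% of 8866 genes were higher, 21.4% lower and 32.0% either way. The median of all genes was -0.13, and relative to it Sall1 was at -0.98, Maf at -1.04 and Mef2a, no longer past the fold, at -0.47. The 10 immediate-early and dissociation genes, which also answer to tissue handling, summed to 922.6 CPM in control naive and 18303 CPM on day 1, the highest of all libraries, and their part in these ratios was not tested. Neither library is a linked one.

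On day 2 after injury the controls were lower than naive in Sall1 (-1.03, -1.20 to -0.84), Maf (-0.79, -0.89 to -0.69), Cebpa (-0.74, -0.90 to -0.58) and Mef2a (-0.65, -0.75 to -0.55), and no member was 1.5-fold higher. Cebpb stood at 0.42 (0.26 to 0.58) and Runx1 at 0.05 (-0.17 to 0.27). Of 9279 genes 13% were higher, 19.8% lower and 32.8% either, against 0 and 4 of the 9 members. Cebpa was thus above naive on day 1 and below it on day 2, and Runx1 on day 2 did not differ from naive beyond counting error. The median of all genes was -0.12, relative to which Mef2a was at -0.54, within the fold, while Sall1, Maf and Cebpa stood at -0.91, -0.68 and -0.63. Cells with UMIs of core G2/M genes made up 0.176% of control naive and 29.7% of control day 2, and without them Maf stood at -0.65 against naive.

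On day 3 the control library was a linked one, so this ratio crosses the split. Cebpb (1.44, 1.29 to 1.60) and Runx1 (1.26, 1.05 to 1.49) were higher than in control naive, and Cebpa (-0.82, -0.99 to -0.64), Sall1 (-0.66, -0.85 to -0.47) and Maf (-0.62, -0.73 to -0.51) lower. Mef2a (0.50, 0.40 to 0.60) and Spi1 (-0.44, -0.55 to -0.33) were within 1.5-fold. Of 8302 genes 20.3% were higher, 10.3% lower and 30.6% either, against 2 and 3 of the 9 members. With the mean of the cells' own CPM in place of the summed counts, 2 members were higher and 1 lower. All 3 control comparisons use the 1 naive control library of 568 kept cells, in which Runx1 rests on 188 UMIs and Sall3 on 117.

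In A20 cKO animals the same question was asked within the linked libraries. On day 1 Cebpa (-0.83, -1.01 to -0.66) was lower and was the 1 member at least 1.5-fold apart, while Maf stood at -0.40 (-0.50 to -0.30) and Cebpb at 0.35 (0.28 to 0.43). Of 8919 genes 7.04% were higher, 5.29% lower and 12.3% either, against 0 and 1 of 9 members. Immediate-early genes summed to 3790 CPM in A20 cKO naive and 805 CPM on day 1. Between naive and day 1, the library with the higher sum had the higher Cebpa in both genotypes. On days 2 and 3 the sum and Cebpa were both below naive in A20 cKO. In control on those days the sum was above naive and Cebpa below it. On A20 cKO day 2 Maf (-0.91, -1.02 to -0.80), Cebpa (-0.87, -1.05 to -0.70) and Sall1 (-0.59, -0.78 to -0.41) were at least 1.5-fold lower, and Mef2c (-0.57, -0.64 to -0.50) lay just short of that fold. Relative to the median of all genes (-0.07) Sall1 was at -0.52, within the fold, so that 2 members were lower. Of 8921 genes 7.14% were higher, 10.3% lower and 17.4% either, against 0 and 3 of 9. Day 3 had Maf (-0.62, -0.73 to -0.51) and Mef2c (-0.60, -0.67 to -0.52) lower and no member higher, with 5.55% of 8797 genes higher, 9.33% lower and 14.9% either. Both values lie near the limit, and relative to the median of all genes (-0.10) neither was 1.5-fold lower. Spi1 stayed within 0.12 log2 of A20 cKO naive on all 3 days, and Runx1 within 0.19.

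The genotypes were compared in each state. Without injury Cebpb (1.36, 1.20 to 1.52) and Runx1 (1.09, 0.88 to 1.32) were higher in A20 cKO than in control, and Mef2a (0.58, 0.48 to 0.68) lay just short of 1.5-fold. No member was 1.5-fold lower. Of 8641 genes 18.8% were higher, 9.04% lower and 27.8% either, against 2 and 0 of the 9. This ratio crosses the split, and so do the next 2.

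On day 1 after injury Cebpa was lower in A20 cKO than in control, with a log2 ratio of -1.73 (-1.90 to -1.57), the widest ratio of any member in any comparison, and Mef2a (1.01, 0.94 to 1.09) and Cebpb (0.73, 0.66 to 0.80) were higher. Of 9160 genes 30.2% were higher, 10.7% lower and 40.8% either, against 2 and 1 of 9. The median of all genes was 0.20 here, and relative to it 1 member was higher (Mef2a) and 3 lower, Sall3 (-0.68) and Spi1 (-0.70) joining Cebpa (-1.93). On day 2 Cebpb (1.06, 0.98 to 1.14), Runx1 (0.85, 0.72 to 0.98) and Mef2a (0.78, 0.70 to 0.85) were higher and none was lower, where 23.2% of 9486 genes were higher, 14.6% lower and 37.8% either.

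Day 3 is the 1 genotype comparison within the linked libraries. There Mef2c (-0.69, -0.77 to -0.61) was lower in A20 cKO, and the other 8 members were within 1.5-fold, Mef2a at -0.40 (-0.49 to -0.32), Sall3 at -0.39 (-0.64 to -0.15) and Cebpb at -0.13 (-0.22 to -0.04). Of 8488 genes 4.98% were higher, 9.91% lower and 14.9% either, against 0 and 1 of 9. The median of all genes was -0.12, and relative to it Mef2c stood at -0.57, just within the fold. Cebpb, Runx1 and Mef2a, which were higher in A20 cKO in comparisons across the split, were not 1.5-fold apart here.

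**Figure D2:**
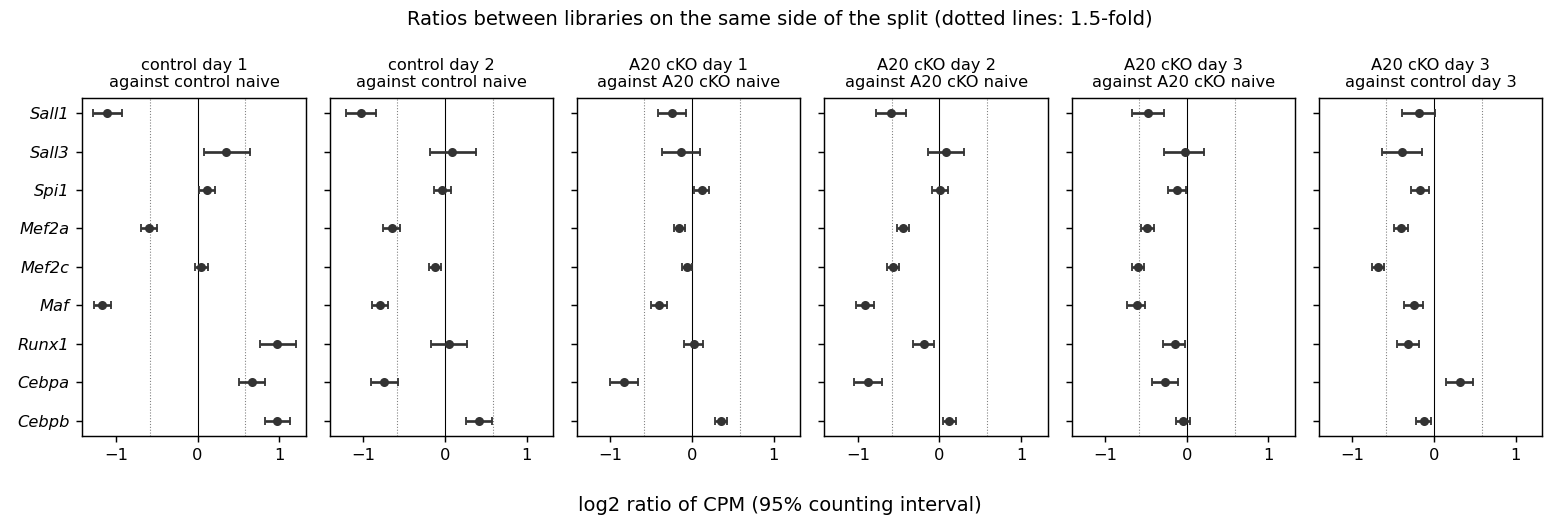
Log2 ratio of CPM (horizontal axis) of each of the 9 factors in the 6 comparisons that do not cross the split, 1 panel each, as points with 95% counting intervals, a line at 0 and dotted lines at 1.5-fold. Sall3 and Spi1 lie within the dotted lines in all 6 panels, Maf and Sall1 pass them on the lower side alone, and Runx1 and Cebpb pass them on control day 1, on the higher side.

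Over the 10 comparisons Cebpb was at least 1.5-fold higher in 5 and Runx1 in 4, neither ever lower. Of all genes 4.98% to 30.2% were higher and 5.29% to 21.4% lower, depending on the comparison. Among comparisons that do not cross the split, Cebpb and Runx1 were higher on control day 1 alone. Their other calls cross the split, where 18.8% to 30.2% of genes were higher. Maf was lower in 5 and Sall1 in 4, neither ever higher, and Mef2c was lower in 2. Cebpa was lower in 5 and higher in 1, and Mef2a higher in 2 and lower in 2. Relative to the median gene Cebpb and Runx1 were higher in 4 each, Maf was lower in 4 and Sall1 in 3, Mef2c in 0, and Mef2a was higher in 2 and lower in 0, while the counts of Cebpa were 5 and 1 as before. On that scale Sall3 and Spi1 were lower once each, on day 1 between the genotypes. Comparisons that share a naive library are not independent of each other.

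Family members and partners were counted by lists to set the 9 factors in context. Beside the counts of this list and those below, 4.98% to 30.2% of all genes were higher and 5.29% to 21.4% lower, depending on the comparison. Control day 3 against naive and the genotype comparisons in the naive state and on days 1 and 2 cross the split. Of 15 relatives (such as Mef2d, Cebpg and Runx2), 14 had a row in the tables and 4 to 6 had enough UMIs to be compared. Cebpg, a C/EBP protein without an activation domain, was lower on control day 1 (-0.75) while Cebpa and Cebpb were higher. On control day 1 and day 2, 0 of 6 relatives were higher and 3 lower than naive, with medians of -0.35 and -0.57, and on day 3 0 of 4 were either. In A20 cKO 0 of 5 were higher and 1, 1 and 0 lower on days 1, 2 and 3. Between genotypes 0 of 5 were higher and 1 lower in the naive state, 2 of 6 higher and 1 lower on day 1, 0 of 5 either on day 2 and 0 of 4 either on day 3.

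The partner and other lineage factors were 22 genes, of which 17 to 19 could be compared. Trib1, a pseudokinase that leads C/EBPα to degradation, was higher on control day 1 (1.58), in the library where Cebpa was highest, and lower in A20 cKO than in control on that day (-1.10). Hhex, Lmo2 and Fli1, blood-lineage regulators, were lower on A20 cKO day 2 than naive, Hhex at -0.89, Lmo2 at -0.75 and Fli1 at -0.97. Hhex was lower in A20 cKO than in control in all 4 states, also within the linked libraries on day 3 (-0.69), as was Lyl1 on that day (-0.67). Against their naive library, 2 of 19 were higher and 2 lower on control day 1, 0 and 4 of 18 on day 2, 0 and 5 of 17 on day 3, and in A20 cKO 1 and 1, 0 and 4, and 0 and 2 of 17. Between genotypes the counts were 1 higher and 6 lower of 17 naive, 2 and 5 of 19 on day 1, 4 and 4 of 18 on day 2 and 2 and 2 of 17 on day 3. The list's median lay between -0.33 (control day 2 against naive) and 0.00 (A20 cKO against control on day 1).

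The list of homeostatic genes linked to Sall1 held 13 genes, most of them surface proteins of resting microglia. Against control naive 0 were higher and 4, 4 and 5 lower on days 1, 2 and 3, where 21.4%, 19.8% and 10.3% of all genes were lower. Of these comparisons the one of day 3 crosses the split. Gpr34, a lipid receptor, was lower on each day (-0.87, -1.09 and -1.21). Against A20 cKO naive 0 were higher and 5, 8 and 7 lower, where 5.29%, 10.3% and 9.33% of all genes were lower. The fructose transporter Slc2a5 stood at -2.19 and Fcrls at -2.13 on day 2. On day 3 between genotypes, within the linked libraries, 0 of 13 were higher and 8 lower, where 9.91% of all genes were lower. Their median was -0.79, where that of all genes was -0.12, and Sall1 itself stood at -0.19 (-0.39 to 0.01). The other genotype comparisons, which cross the split, had 0 higher and 6 lower (naive), 1 and 10 (day 1) and 0 and 10 (day 2). Of all genes 9.04%, 10.7% and 14.6% were lower in these. P2ry12, a receptor on this list and a microglial marker, stood at 845 CPM in A20 cKO day 3 and 4026 CPM in control naive. These libraries differ in genotype, injury and side of the split at once. Within the linked libraries control day 3 had 2191 CPM, and A20 cKO against control on that day stood at -1.37.

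Of the 8 myeloid genes linked to PU.1, 1 or 2 were higher in each of the 4 comparisons that cross the split between linked and other libraries, and in the other 6 comparisons 0 were higher and 0 to 2 lower. Of all genes 18.8% to 30.2% were higher in the crossing comparisons. In the other 6, 4.98% to 13% of all genes were higher and 5.29% to 21.4% lower. Spi1 was within 1.5-fold in all 10. On control day 3 against naive, which crosses the split, Itgam (0.86) and Ptprc (0.85), an integrin chain and the leukocyte antigen CD45, were higher, and the LPS co-receptor Cd14 (-0.996) and the lysosomal Cd68 (-0.64) lower. The counts of higher and lower genes were 0 and 0, 0 and 1, and 2 and 2 on control days 1 to 3, and 0 and 0, 0 and 2, and 0 and 2 on A20 cKO days 1 to 3. Between genotypes they were 1 and 2 naive, 2 and 3 on day 1, 2 and 5 on day 2 and 0 and 1 on day 3, where the Fc receptor gene Fcgr3 (-0.90) was the 1 lower.

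Of 7 inflammatory genes linked to C/EBPβ, 2 or 3 had enough UMIs to be compared, and Tnf was the 1 that met the rule for naming. Tnf stood at 16.7 CPM in control naive and 158.1 CPM on control day 1 (3.22), and at 54.2 CPM in A20 cKO naive and 123.6 CPM on day 3 (1.19), where Cebpb did not differ from A20 cKO naive. Counts of higher and lower genes against naive were 2 and 1 of 3, 1 and 1 of 2, and 1 and 1 of 2 in control, and 0 and 1, 0 and 2, and 1 and 1 of 3 in A20 cKO. Between genotypes they were 2 and 0 of 3, 0 and 1 of 3, 1 and 1 of 2, and 1 and 1 of 2 from naive to day 3.

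The levels of Cebpa and Cebpb were set beside the summed immediate-early and dissociation genes in each library. These genes summed to 922.6, 18303, 1557 and 2443 CPM in control naive and days 1, 2 and 3, and to 3790, 805, 730.1 and 3120 CPM in A20 cKO. Cebpa was highest in the library with the highest sum and lowest in the libraries with the lowest sums, while control naive, with the third-lowest sum, had the second-highest Cebpa. Cebpb had its highest level in A20 cKO day 1, one of the lowest sums.

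**Figure D3:**
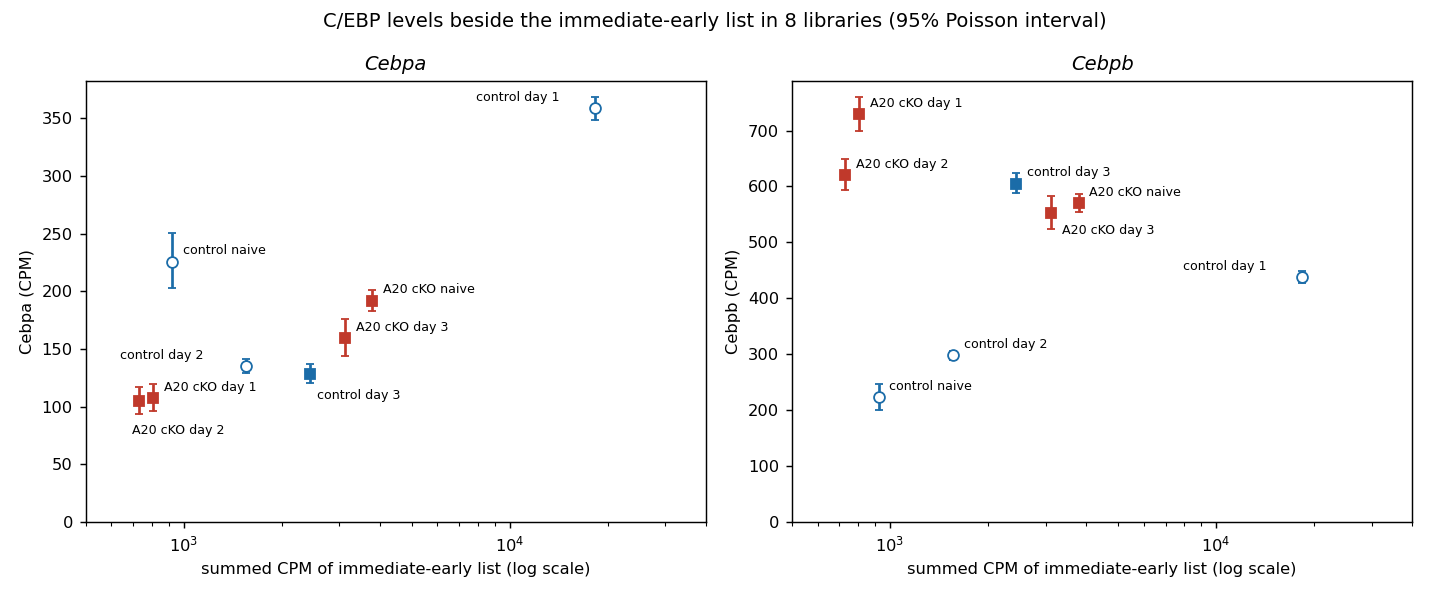
Level of Cebpa (left) and Cebpb (right) in CPM against the summed CPM of the 10 immediate-early and dissociation genes (log axis), 1 point a library with its 95% Poisson interval, squares for linked and open circles for the other libraries. Control day 1 lies far to the right at 18303 CPM with the highest Cebpa, and the Cebpb levels show no such order.

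Cells were then compared within a library. Cells in which 3 or more of 18 core G2/M genes had a UMI, the mark of cells about to divide or dividing, numbered 1065 on control day 2, 235 on control day 3 and 93, 33, 106 and 50 in A20 cKO naive and days 1 to 3, and the 2 remaining control libraries had fewer than 20. As CPM, Sall1, Mef2a, Maf, Runx1 and Cebpa were lower in the G2/M cells than in the other cells of all 6 libraries, with median log2 ratios of -0.37, -0.36, -0.33, -0.13 and -0.53. Of 7376 genes 13.3% were lower in all 6. The interval lay below 0 in 6 libraries for Mef2a, in 5 for Cebpa, in 3 for Maf, in 2 for Sall1 and in 1 for Runx1. Cebpb was higher in 5 of 6 with a median of 0.24 and with its interval above 0 in those 5, and 30.5% of genes were higher in at least 5. On control day 2 Cebpa stood at 114.2 CPM in G2/M cells and 149.1 CPM in the rest (-0.38, -0.52 to -0.26), and Cebpb at 310.5 and 289.5 CPM (0.10, 0.02 to 0.19). In A20 cKO naive Maf stood at 261.7 and 488.4 CPM (-0.89, -1.17 to -0.64).

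These are shares of a larger UMI total. G2/M cells held more UMIs, a median of 5528 against 3570.5 on control day 2, and per cell the UMIs of 7 members were higher in G2/M cells in all 6 libraries, and those of Maf and Cebpa in 5. Cebpa, for example, had 0.680 UMIs per G2/M cell and 0.561 per other cell on control day 2. The class asks for UMIs of several genes and so favours cells with more UMIs. The counts per cell therefore cannot show that dividing cells held more RNA. Sall3, Spi1 and Mef2c went in both directions, with medians of 0.00, -0.06 and -0.18. When cells were classed and counted after thinning, Mef2a, Maf and Cebpa were again lower in 6 of 6 and Cebpb higher in 5 of 6, but Sall1 was lower in 4 and Runx1 in 3. Without shared barcodes Sall1, Mef2a and Maf were lower in 6 of 6 and Cebpa and Runx1 in 5.

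Cells with a Fos UMI among 2000 were compared with cells without one, since Fos marks recent stimulation or handling. This state was chosen after the levels of Cebpa had been seen. Cebpa was higher in the Fos cells of 6 of 6 libraries with 20 or more cells on both sides, by 0.04 to 0.85 log2 (median 0.46), and with its interval above 0 in 3. Of 5712 genes 2.94% were higher in all 6. The median of all genes was 0.11 on A20 cKO day 2 and -0.12 on control day 1, and between -0.01 and 0.02 in the other 4 libraries. For Cebpa the ratio was 0.85 (0.38 to 1.31) on A20 cKO day 3, on control day 1, where 3180 of 3225 cells had a Fos UMI, 0.76 (0.15 to 1.53), and on control day 2 0.04 (-0.18 to 0.25). Cebpb was higher in 3 of 6 and had a median of -0.00. Maf was lower in 6 of 6 with a median of -0.10 and an interval below 0 in 1, where 3.40% of genes were lower in all 6. The other 6 members went in both directions.

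**Figure D4:**
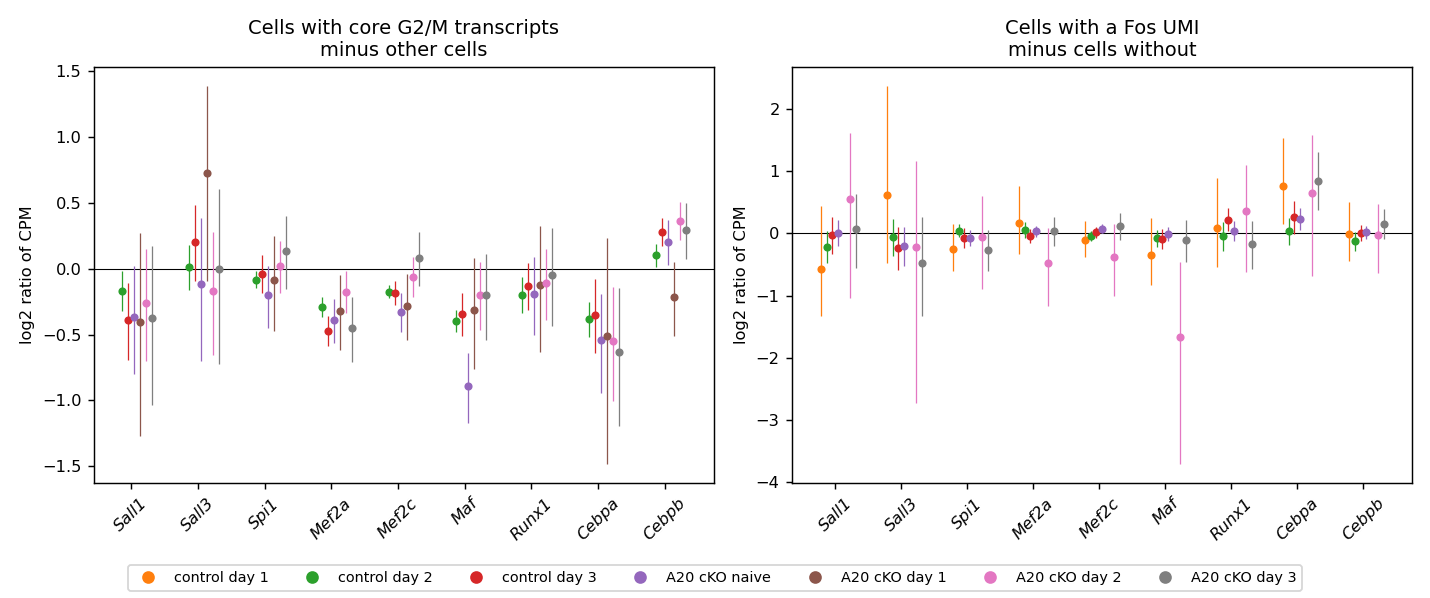
Log2 ratio of CPM of each factor in cells with core G2/M transcripts against the other cells (left) and in cells with a Fos UMI against cells without (right), 1 point per library with 20 or more cells on both sides, bars being 95% counting intervals. On the left Sall1, Mef2a, Maf, Runx1 and Cebpa lie below 0 in all 6 libraries, and on the right Cebpa lies above 0 in all 6.

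Cells without a P2ry12 UMI among 2000 stood for cells that had least of this resting-state receptor, and 7 libraries had 57 to 144 of them. Maf was lower in them in 7 of 7 libraries, with a median of -0.37 and an interval below 0 in 3, where 3.42% of 5433 genes were lower in all 7. Sall1 was lower in 5 of 7, with intervals below 0 in A20 cKO naive (-1.03, -1.76 to -0.44) and day 3 (-1.01, -1.91 to -0.28). Mef2c, Mef2a and Cebpa were lower in 6 of 7, with intervals below 0 in 3, 2 and 1. The share of all genes lower in at least 5 or at least 6 libraries was not counted, so these counts have no background. Cebpb was higher in 6 of 7 with no interval off 0, where 12.6% of genes were higher in at least 6 and 3.44% in all 7. These ratios rest on few UMIs, 130 of Sall1 and 434 of Maf in the cells without P2ry12 of all 7. Cells without P2ry12 can also be of other types. Kept cells with several markers of another type numbered 42 in A20 cKO naive and 16 in A20 cKO day 3. Their part in these ratios was not tested.

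Most single cells held several of the factors. At 2000 UMIs the median cell had UMIs of 4 of the 9 in each of the 8 libraries, and the mean lay between 3.72 on control day 2 and 4.46 in A20 cKO naive. Cells with none of them made up at most 0.479% of a library. All 9 were found in 1 cell of control day 3, in 2 cells of A20 cKO naive and in no cell of the other 6 libraries. For each pair of members the median over libraries of the share of cells with both was close to the product of the single shares, at 0.974 to 1.07 times the product. In single libraries it ran from 0.731 (Sall3 and Spi1) to 1.21 (Sall1 and Spi1) times the product.

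Among the kept barcodes 20 had no UMI of any of the 5 microglial markers, and they came only from linked libraries. Control day 3 held 8, A20 cKO naive 1, and A20 cKO days 1, 2 and 3 held 2, 5 and 4. They therefore give no background for control naive, day 1 or day 2. At least 3 neuron markers were found in 3 of them and at least 3 endothelial and mural markers in 2, so the 20 cannot be read as free RNA alone. Their median was 1318 UMIs, where that of the kept cells together was 3532. Sall1, Sall3, Maf, Runx1 and Cebpa were found in 0 of the 20, which allows a share of up to 15% by the limit of 3 counts and 16.8% by the exact interval. Mef2a was found in 4 (20%, interval 5.73% to 43.7%), Cebpb in 3 (15%, 3.21% to 37.9%), and Spi1 and Mef2c in 1 each (5%, 0.127% to 24.9%). The unthinned shares of the members given above were larger than these. For Sall3 the lowest, 17.6%, was in control naive, which held no such barcode, and the lowest in a linked library was 18.4%, in A20 cKO day 1.

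Genes with the most like pattern over the 8 libraries were found by the root mean square difference in centred log2 CPM over 3270 genes that averaged 50 CPM or more. Sall1 had Mvb12b (0.0929) and Cd33 (0.114), and Maf had Sall1 (0.119) and Lpar6 (0.123), so that Sall1, a member of another family, was the gene nearest to Maf. Spi1 had Suclg1 (0.0474) and Tor2a (0.0752), and Mef2a had Srgap2 (0.0559) and Irf2 (0.0631). Mef2c had Zfp120 (0.0857) and Mfhas1 (0.0922), Sall3 Atp5a1 (0.0851) and Dbnl (0.116), and Runx1 Jmjd1c (0.162) and Pik3r1 (0.175). Cebpa had Pnrc1 (0.157), and Cebpb Hspa4 (0.102) and Eif3a (0.139). With 8 libraries of which 5 are linked, many genes share such a pattern, and the nearness is a description.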

How the data were processed

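Single-cell RNA libraries of sorted YFP+ cells from lumbar cords were made with a 10x Genomics 3′ kit, whose version differs between the labels and the study's methods. The authors deposited unnormalised UMI counts of each gene in each barcode, for which the submitters' processing notes name Cell Ranger 2.1.1 and mm10. The annotation used for counting is not given in the sources used here. The study's methods integrated the libraries, whereas here the counts were used as deposited, with no integration and no doublet caller (doublets were gated out at the sort).

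Barcodes with at least 1000 UMIs, at least 500 genes and at most 10% mitochondrial UMIs were kept. Counts were summed per library and scaled to CPM. Log2 ratios had 0.5 UMIs added to each sum, and the background was all genes whose sums over both libraries came to 100 UMIs or more. Shares were taken after thinning cells to 2000 UMIs, which left out 20 to 310 cells per library. Each group was 1 library, so no test was run, and intervals cover counting error only. Total UMIs were 1648400 to 15817426 per library. Of 27998 gene IDs 27645 matched GENCODE M21 (GRCm38), which gave the positions. Promoter windows came from RefSeq.

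All 9 members are named. Of each list, genes were named with a mean of 50 CPM or more that were at least 1.5-fold apart in a comparison, at most 3 in each direction, and here a selection of these is given. For each member the 2 most alike genes are named, and a few genes that these rules select are not reported here. Members and lists were chosen with earlier results of these data known, and the Fos state after the levels of Cebpa were seen. Cebpd was not analysed here. Alternatives covered scaling, cell filters, shared barcodes, cells with markers of other types, G2/M cells, the minimum of UMIs, the fold and the thinning. Steps were tested on simulated data. Python 3.11.15, numpy 2.4.6, scipy 1.17.1 and pandas 2.3.3 were used.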

Additional observations from a re-analysis of the deposited data

Results flagged for a closer look

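For 4 members the ratio to naive pointed in opposite directions in the genotypes on the same day, with the counting intervals of both ratios off 0. The share of all genes that did so was not counted, so the number of members has no background. Each genotype had 1 library per state, so these differences were not tested. Cebpa on day 1 stood at 0.66 log2 against naive in control and at -0.83 in A20 cKO. On day 3 Runx1 stood at 1.26 in control and -0.15 in A20 cKO, Mef2a at 0.50 and -0.48, and Mef2c at 0.10 and -0.60. Relative to the median of all genes, Runx1 on A20 cKO day 3 was at -0.05 and Mef2c on control day 3 at 0.03. That median lay within the counting interval of each of these ratios, so the opposite directions of Runx1 and Mef2c depend on the scaling. The control ratios of day 3 cross the split between linked and other libraries, and those of A20 cKO do not. For Cebpa the immediate-early genes moved in the same directions, from 922.6 to 18303 CPM in control and from 3790 to 805 CPM in A20 cKO, and their part was not tested.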

How the results depend on the processing

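Each ratio rests on 1 library per group, and the naive control, the smallest in UMIs, enters 4 of the 10 comparisons. No paired analysis was possible because each group had 1 library. With a fold of at least 2, the members apart from naive were 2, 1 and 2 on control days 1, 2 and 3 and 0, 0 and 0 on the same A20 cKO days, and 1 and 0 were apart between genotypes on days 2 and 3. With the mean of the cells' own CPM 3 members were apart on control day 3. On A20 cKO day 3 against naive, 1 member was apart under the stricter cell filter, 1 without shared barcodes, 0 relative to the median gene and 0 with size factors. Between genotypes on day 3 the count was 0 relative to the median gene and 0 with size factors. The causes were not tested. Of 90 ratios 35 moved beyond their counting interval with size factors, 25 relative to the median gene and 3 without G2/M cells, and 0 under the other cell filters or the mean of cell CPM. Shares of cells moved in 72 of 72 values without thinning or at 1000 UMIs and in 2 with another seed. The alternatives on cell states were chosen after seeing the data.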
